A study of Arabidopsis thaliana with 12 samples.

Results

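The WRKY transcription factors of Arabidopsis thaliana were followed on the probe sets that the array annotation assigns to a single gene named WRKY and a number. The rule found 6 such probe sets among the 13513 that name 1 gene, each for a different gene. They were WRKY6 (AT1G62300), WRKY20 (AT4G26640), WRKY22 (AT4G01250), WRKY42 (AT4G04450), WRKY47 (AT4G01720) and WRKY53 (AT4G23810), against 67 genes with such a symbol in the RefSeq gene table (TAIR10.1). The 6 are therefore a small and uneven sample of the family, and 5 of them have identifiers of the AT4G series. ZAP1 (AT2G04880), which RefSeq also lists as WRKY1, lies outside the rule.

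Total RNA came from aerial rosettes of 15-day-old wild-type seedlings of the Columbia ecotype, grown in 12 h white light and 12 h dark and then moved to constant darkness. One set received 1 h of white light around midnight (night pulse) and another the same amount half-way through what would have been the light period (day pulse), here called the subjective day. Plants collected at the same times in darkness served as night control and day control, with 3 arrays in each of the 4 groups. Circadian times of CT 6 for night and CT 18 for day stand in the labels, which conflict with these names if they count from subjective dawn, and the groups here follow the sample titles. All groups, pulsed ones included, had been placed in constant darkness. Night and day groups may also differ in the hours already spent in darkness, which cannot be told apart here from time of day. Each sample holds whole rosettes, so that fewer cells of a type and less RNA per cell cannot be told apart.

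WRKY proteins are plant transcription factors named for the amino acids of their DNA-binding domain, which sits beside a zinc finger and binds the W-box of target promoters. Many act in immunity, downstream of pattern receptors and MAP kinase cascades, and several regulate leaf senescence, which prolonged darkness can set off. By the family's usual classification WRKY20 belongs to group I, which has a pair of WRKY domains. WRKY6, WRKY42 and WRKY47 belong to group IIb, WRKY22 to group IIe and WRKY53 to group III. Partner proteins with a VQ motif bind some WRKY factors and alter their activity.

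Levels are given as normalized signals, which are linear intensities after quantile normalization across the 12 arrays. Changes are log2 differences ± SE from limma, with 3 arrays per group, and a call means an adjusted p under 0.05 (Benjamini-Hochberg, over the 13647 probe sets tested). The lowest mean signal among these was 21.75, and a group mean under it is called dim. Before normalization the arrays had median signals of 23.5 to 63.5, and precision is limited by how few arrays there were. The day controls, at 33.7, 25 and 28.1, had lower medians than every other array except day pulse replicate 1 (23.5). The part of this in the WRKY results was not tested. Of the quality measures, the GAPDH control's 3' to 5' signal ratio stood out on day pulse replicate 1 (9.29) and day control replicate 2 (8.75), against 2.16 to 5.16 elsewhere. The same ratio of the actin control was 13.5 to 37.1 over all arrays. It was 16.3 and 27.6 on these, so it did not single them out. Markers were read for the labelled tissue and for roots, and their part in the WRKY results was not tested. Of the 12 leaf markers listed, 2 had a named probe set, RCA at 2626 to 8675 and LHCB4.1 at 4750 to 7380. Of 8 root markers, 3 had one. EXPA7 and EXPA18, which are expressed in root hairs, stayed between 0.765 and 16.2, while PYK10, a glucosidase of roots and hypocotyls, lay between 390 and 1922. RCA rose by 0.78 ± 0.19 after the day pulse (limma adjusted p = 0.004849) and was higher in night than day controls by 1.02 ± 0.19 (adjusted p = 0.0006427), both calls lost with median centring (0.05975 and 0.232). PYK10 was higher in night than day controls by 0.75 ± 0.26 (adjusted p = 0.02892), a call lost under 6 of 23 alternatives, among them without night control replicate 1 (0.1332) or 3 (0.08115) or day control replicate 1 (0.06088), 2 (0.05077) or 3 (0.06966). LHCB4.1 had no called change.

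WRKY22 and WRKY53 showed called differences, WRKY6 and WRKY47 had differences that were called only under some settings, and WRKY20 and WRKY42 had none. WRKY22 was high in subjective-day darkness alone. WRKY53 had higher means in both day groups than in both night groups, with and without light, and only the controls were compared by a test. WRKY20, the brightest of the 6 on average, stayed at group means of 142 to 165, and WRKY42 was dim in every group.

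**Figure D1:**
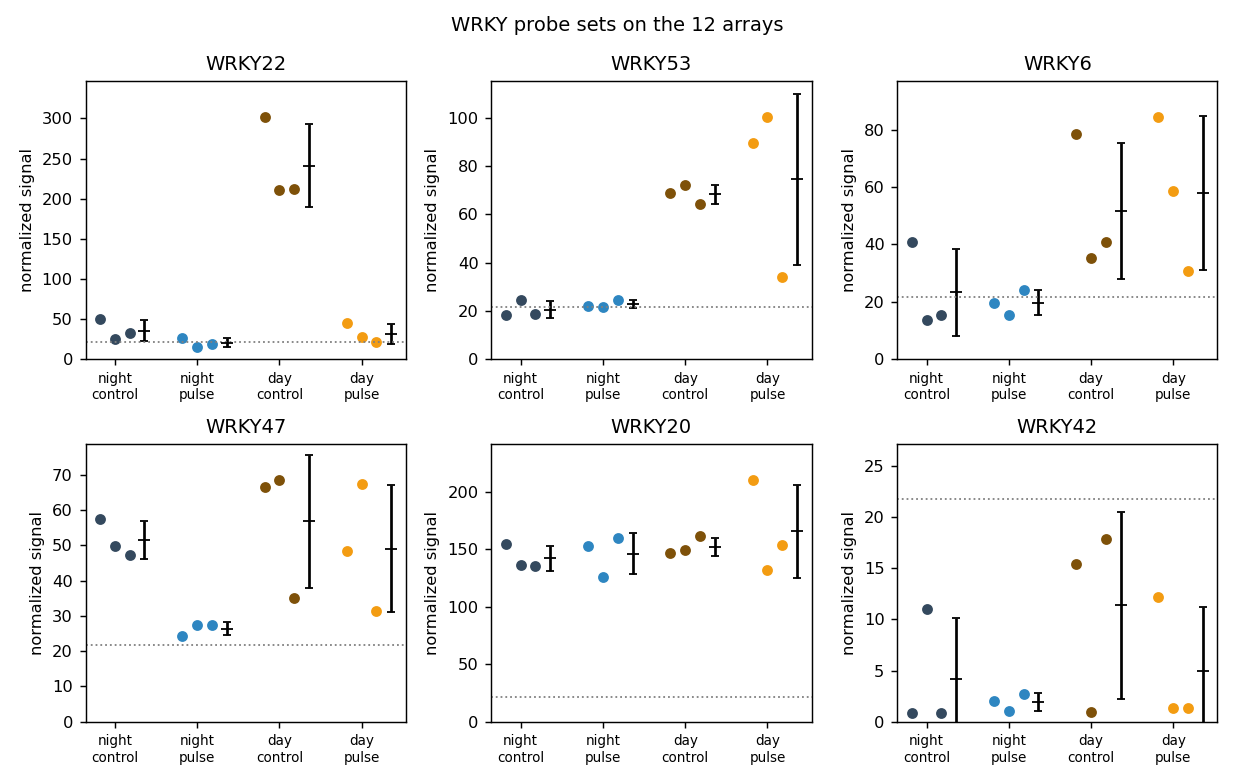
Normalized signal of the 6 WRKY probe sets (vertical axis, linear from 0) in the 4 groups, with 1 point per array, replicates 1 to 3 from left to right. Black marks are means ± SD of 3 arrays (cut off at 0) and the dotted line is the lowest mean signal tested, 21.75. The 3 day controls of WRKY22 lie between 210 and 301, above its other 9 arrays at 15.4 to 49.8.

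The first gene, WRKY22, acts downstream of the MAP kinase cascade set off by the bacterial peptide flg22 and also promotes senescence induced by darkness. Its signals were 301, 210 and 212 on day control replicates 1, 2 and 3. After the day pulse they were 44.6, 27.7 and 21.5. The pulsed arrays thus all lay below the day controls, and the fall in the mean was larger than the spread within either group.

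The WRKY22 mean dropped from 241 ± 52.1 (SD, n = 3) to 31.3 ± 12.0, a fold of 7.72. The fitted change was -2.91 ± 0.32 (95% interval -3.61 to -2.21, limma adjusted p = 1.034e-05). This fall ranked 158 among 13647 probe sets ordered from the largest fall. In the deposited intensities, before any normalization, WRKY22 read 153.9 to 310.6 on the day controls and 24.2 to 29.5 after the day pulse. Leaving out the arrays of high GAPDH ratio, the change was -3.30 ± 0.37 (adjusted p = 2.458e-05).

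At night WRKY22 read 49.8, 24.6 and 31.9 on the controls and 26.4, 15.4 and 19.0 after the pulse, so these groups overlapped. The mean went from 35.4 ± 13.0 to 20.3 ± 5.60, which is dim, with a fitted value of -0.72 ± 0.32 (interval -1.42 to -0.02, unadjusted p = 0.04422, adjusted p = 0.1888). It was not called, although it was with the replicate number as a block (adjusted p = 0.0495) and with array weights (adjusted p = 0.04491). The difference between the pulse effects on WRKY22, night minus day, was 2.19 ± 0.46 (interval 1.20 to 3.18, limma adjusted p = 0.007401), which is the fitted value for signals as normalized. From a night control mean of 35.4, however, a fall of more than 1.63-fold ends under 21.75. A night fall as large as that of the day would thus end at dim signals, and the size of the difference is not established.

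The control levels of WRKY22 also differed between the times of collection. Night controls were below day controls by a fitted -2.74 ± 0.32 (limma adjusted p = 1.632e-05), with means 6.81-fold apart and no overlap between the arrays. The day pulse comparison, the difference between pulse effects and this one use the same day control arrays, so a high value on those arrays enters all of them. In order of level, day controls stood apart from the rest, and the neighbouring groups below them (night control at 35.4, day pulse at 31.3, night pulse at 20.3) overlapped. The means after a pulse at either time thus lay below the mean of the night controls, with overlapping arrays.

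WRKY53, a positive regulator of leaf senescence, gave a different pattern. It read 68.8, 72.1 and 64.2 on the day controls and 18.2, 24.6 and 18.6 on the night controls. No night control came near a day control. Its mean fell from 68.4 ± 3.93 in the day controls to a dim 20.5 ± 3.56 in the night controls, at least 3.14-fold, and the fitted value of night minus day was -1.66 ± 0.34 (interval -2.39 to -0.92, limma adjusted p = 0.001323).

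From the dim night controls a fall of WRKY53 could not be measured. The pulse left it without a called change at either time. After the night pulse it read 22.2, 21.5 and 24.6, with a fitted value of 0.15 ± 0.34 (interval -0.59 to 0.88, adjusted p = 0.8586). After the day pulse it read 89.4, 100 and 34.0, and replicate 3 lay below the day controls while the other two lay above them. The fitted value in the day was -0.02 ± 0.34 (interval -0.75 to 0.72, adjusted p = 0.9752), or 0.46 ± 0.26 without replicate 3 (adjusted p = 0.1788). The day pulse mean of 74.5 ± 35.6 and the night pulse mean of 22.7 ± 1.62 were not compared by a test, and their arrays did not overlap.

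WRKY6, a senescence- and defence-linked factor that also represses the phosphate exporter gene PHO1, also had higher means in both day groups. Its day controls ran from 35.1 to 78.7 and its day pulse arrays from 30.6 to 84.3. Its night controls ran from 13.8 to 40.8, with replicate 1 the high one, and its night pulse arrays from 15.4 to 24.1. The neighbouring groups in this order overlapped.

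Night controls of WRKY6 were below day controls by a fitted -1.15 ± 0.46 (interval -2.13 to -0.17), which narrowly missed the call (limma adjusted p = 0.05153). The value was called under 9 of 22 alternatives, among them without night control replicate 1 (-1.60 ± 0.45, adjusted p = 0.01283), without day control replicate 2 (adjusted p = 0.04483), without day pulse replicate 1 (0.03608) or 3 (0.03859), and with the replicate number as a block (0.01865). No pulse change of WRKY6 was called, with -0.09 ± 0.46 at night and 0.14 ± 0.46 in the day, the least precise estimates of the 5 tested genes. The day value was 0.52 ± 0.47 without day pulse replicate 3 and -0.19 ± 0.49 without replicate 1.

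WRKY47 was the WRKY gene whose night pulse arrays stood apart from their controls. The controls ran from 47.4 to 57.6 and the pulsed arrays from 24.2 to 27.5. The mean went from 51.6 ± 5.34 to 26.4 ± 1.92, and the fitted value was -0.91 ± 0.31 (interval -1.58 to -0.24, unadjusted p = 0.01126). It was not called over all probe sets (limma adjusted p = 0.07398). Under 5 of 22 alternatives it was called, with the replicate number as a block (adjusted p = 0.04609), without day control replicate 3 (0.04662), with dim signals raised (0.04748), with array weights (0.03886) and with only the compared groups in the fit (0.01135).

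In the subjective day WRKY47 ranged from 35.1 to 68.5 on the controls and from 31.3 to 67.4 after the pulse, overlapping throughout, with a fitted value of -0.21 ± 0.31 (adjusted p = 0.6206). The difference between its pulse effects, -0.71 ± 0.44 (adjusted p = 0.3231), was not called, although array weights called it (-1.07 ± 0.39, adjusted p = 0.04119). Its controls did not differ by a called amount between times, at -0.08 ± 0.31 (adjusted p = 0.8519).

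WRKY20 ranged from 126 to 210 over the 12 arrays, and every pair of neighbouring groups overlapped. Its fitted values were 0.04 ± 0.19 at night and 0.09 ± 0.19 in the day for the pulse, and -0.10 ± 0.19 for night minus day controls. Their intervals, -0.38 to 0.45, -0.32 to 0.50 and -0.51 to 0.31, were the narrowest among the 5 tested genes. The highest array, at 210, was day pulse replicate 1, which had the high GAPDH ratio.

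WRKY42, which regulates phosphate uptake and transport genes, did not pass the filter on dim probe sets. It ranged from 0.813 to 17.8 and its group means from 1.93 to 11.4, and 4 of its arrays, in 3 of the groups, stood between 11.0 and 17.8 with no group consistently high. No fold is given for it. Without the filter its fitted values were -0.28 ± 0.81 for the pulse at night and -0.89 ± 0.81 for that in the day, neither of them called.

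**Figure D2:**
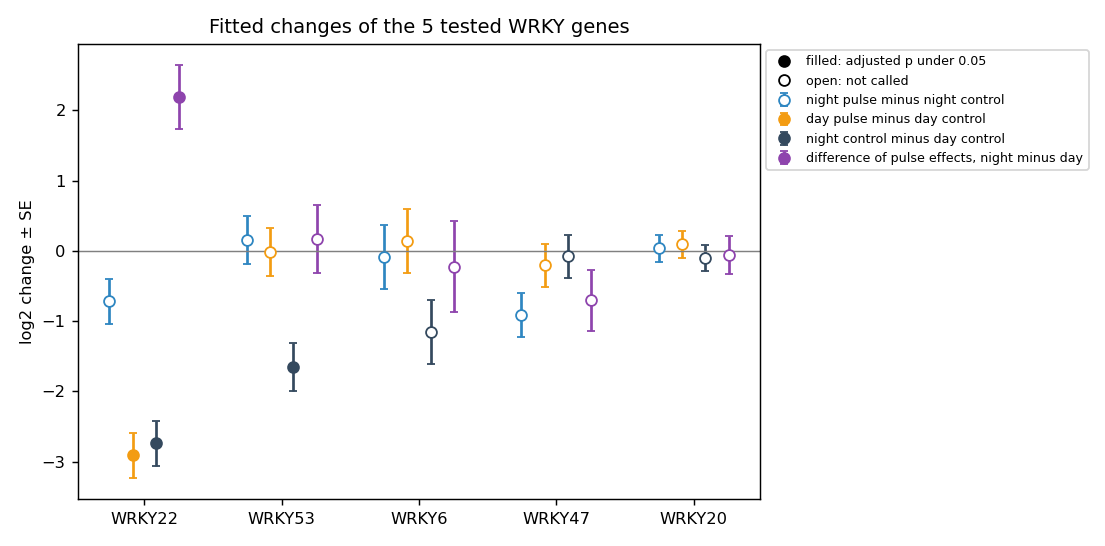
Fitted log2 changes (vertical axis) of the 5 tested WRKY genes in 4 comparisons, with bars of ± SE and 3 arrays per group. Filled points had an adjusted p under 0.05, which was the case for WRKY22 in the day pulse, the controls and the difference of pulse effects, and for WRKY53 in the controls.

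Set against the whole array, the counts of WRKY genes were not large. After the night pulse 0 of 5 tested WRKY genes were called by limma, where 12.9% of all probe sets were called. Pulsed arrays were clear of their controls for 1 of the 5, WRKY47, and for 37.1% of all probe sets. After the day pulse 1 of 5 fell and none rose, where 42.7% of all probe sets were called and 21.8% fell. The day groups did not overlap for 1 of the 5, WRKY22, against 48% of all probe sets.

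The difference between pulse effects was called for 1 of 5, against 12.7% of all probe sets. Between controls 2 of 5 were lower at night and none higher, where 48.4% of all probe sets were called and 22.6% were lower at night. The control arrays did not overlap for 2 of the 5, against 60.4%. The median change of the 5 tested genes was -0.09 for the night pulse and -0.02 for the day pulse, beside -0.01 and -0.04 for all probe sets tested. For night minus day controls it was -1.15, beside 0.02 for all tested, and with 5 genes this median is the value of WRKY6. WRKY6 and WRKY53 passed the filter on mean signal through their day groups, and neither was kept with the night groups alone in the fit. The count lower at night and this median thus rest partly on genes kept for their day signals.

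Day pulse replicate 3 had the lowest signal of its group for 4 of the 5 tested WRKY genes (WRKY22, WRKY53, WRKY6 and WRKY47), as night pulse replicate 2 did for 4 (WRKY22, WRKY53, WRKY6 and WRKY20). The summed signal of the 5 was 477, 386 and 272 on day pulse replicates 1, 2 and 3. The same sum was 662, 535 and 514 on the day controls. Among night arrays it was 248 to 321 for controls and 206 to 255 after the pulse. The part of any array-wide property in these sums was not tested. The WRKY22 day fall was -2.69 ± 0.35 without day pulse replicate 3 (adjusted p = 6.982e-05).

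ZAP1, the WRKY1 gene outside the rule, had means of 111 ± 8.17 in night controls, 139 ± 23.3 after the night pulse, 166 ± 12.8 in day controls and 173 ± 70.5 after the day pulse. No change of ZAP1 was called, with 0.31 ± 0.28 at night and -0.04 ± 0.28 in the day. Its night controls lay below its day controls without overlap, at -0.58 ± 0.28 (adjusted p = 0.1013), a value called under 6 of 23 alternatives, the replicate block (0.04435), median centring (0.02809) and leaving out day pulse replicate 1 (0.00947) among them.

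Genes that act with WRKY factors were looked up from lists of pattern receptors and MAP kinases, VQ proteins, defence outputs, senescence genes and trichome genes. Named probe sets existed for few of them. Of 14 receptor and kinase genes, 2 had a named probe set and 1 was tested. Of 20 VQ genes 7 had one and 3 were tested, and of 8 senescence genes 1 had one and was tested. None of 12 defence and salicylate genes or of 5 trichome genes had a named probe set, so the usual outputs of WRKY activity are not analysed here.

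IKU1, a VQ protein of seed development that binds the factor encoded by MINI3 (WRKY10), fell after both pulses. It read 63.9, 53.3 and 59.8 on night controls and 37.1, 32.5 and 39.3 after the night pulse, a change of -0.67 ± 0.20 (limma adjusted p = 0.04182). On day controls it read 147, 102 and 102 and after the day pulse 71.0, 68.2 and 66.2, a change of -0.74 ± 0.20 (adjusted p = 0.008997). The pulsed arrays lay below their controls at both times.

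The night call of IKU1 was lost under 13 of 22 alternatives, among them leaving out any 1 of the 6 night arrays (adjusted p from 0.07769 without night control replicate 2 to 0.1367 without night control replicate 1), or day pulse replicate 2 (0.05614) or 3 (0.05708) or day control replicate 3 (0.05336). Night controls of IKU1 were below day controls by a fitted -0.95 ± 0.20 (adjusted p = 0.001529). Without normalization the IKU1 changes were -0.62 at night, -0.61 in the day and -0.40 between controls, none called (adjusted p = 0.452, 0.2086 and 0.3776). The other tested genes of the VQ list, AT3G56880 and AT5G46780, were not called by either pulse, at -0.43 ± 0.26 and -0.94 ± 0.34 at night and 0.20 ± 0.26 and -0.61 ± 0.34 in the day. At night AT5G46780 was called under 5 of 23 alternatives, with the replicate block (adjusted p = 0.0217), array weights (0.004072), only the compared groups (0.008753), without day pulse replicate 1 (0.01436) and without the pair of arrays of high GAPDH ratio (0.01668). In the day it was called under 3 of 23, with array weights (0.01337), without day pulse replicate 1 (-1.07, adjusted p = 0.005858) and without that pair (0.01298). Thus 1 of 3 tested VQ genes fell after each pulse and none rose. Of all probe sets, 12.9% were called at night, in either direction, and 21.8% fell in the day. The 4 VQ genes under the filter were AT1G78410, AT2G22880, AT3G18360 and AT5G08480. Without the filter AT2G22880, with means of 48.9 ± 12.5 on day controls and 9.03 ± 9.84 after the day pulse, was called lower after that pulse (adjusted p = 0.01698). It was also called lower in night than day controls (0.00358). AT1G78410, with means of 26.5 ± 13.9 and 4.99 ± 5.88, was called lower after the day pulse (0.0224). Its arrays overlapped, at 10.7 on day control replicate 2 and 11.7 on day pulse replicate 2. The day pulse means of both genes were dim.

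SAG101, a senescence-associated lipase-like protein that works with EDS1 in immunity, read 46.8, 66.5 and 42.0 on day controls and 14.2, 20.4 and 29.0 after the day pulse. It fell from a mean of 51.8 ± 13.0 to a dim 21.2 ± 7.42, at least 2.38-fold (-1.23 ± 0.44, limma adjusted p = 0.03648). The call was lost without day pulse replicate 1 (adjusted p = 0.09899) or 2 (0.07256), without day control replicate 1 (0.05697), 2 (0.124) or 3 (0.05533), without the pair of arrays of high GAPDH ratio (-0.84, adjusted p = 0.2301), without normalization (0.2708) and without a filter (0.0611). At night it had a value of -0.42 ± 0.44 without a call. BIK1, a receptor-like cytoplasmic kinase of pattern-triggered immunity, had values of -0.47 ± 0.24 at night (adjusted p = 0.2543, called only with array weights, 0.03611, and without that pair of arrays, 0.04791) and 0.11 ± 0.24 in the day (adjusted p = 0.7428), and EFR, the receptor for bacterial EF-Tu, was under the filter at 1.14 to 24.9. Without the filter EFR was called higher after the day pulse, at 1.72 ± 0.55 (adjusted p = 0.03294), from signals of 1.46 to 7.88 on day controls to 8.45 to 24.9, with both means dim.

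**Figure D3:**
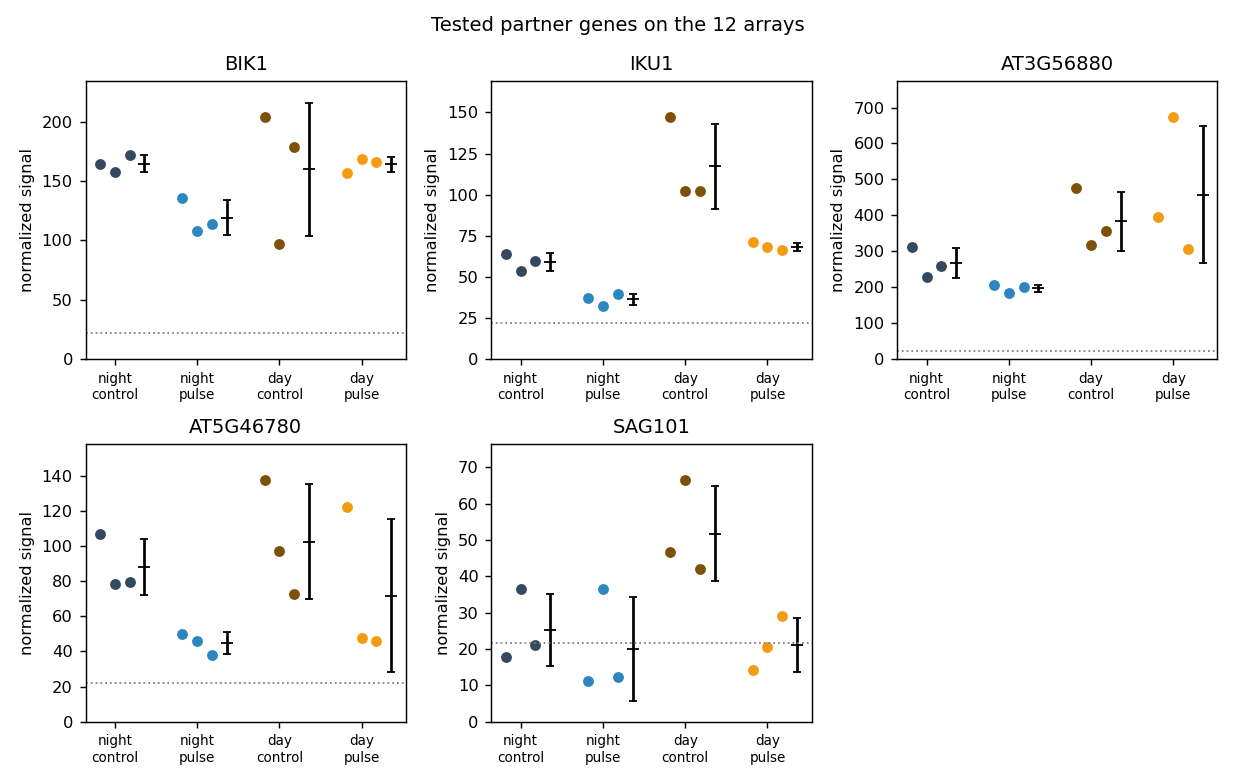
Normalized signal (vertical axis, linear from 0) of the 5 tested genes from the lists of WRKY partners and related pathways in the 4 groups, with 1 point per array, replicates 1 to 3 from left to right. Black marks are means ± SD of 3 arrays and the dotted line is 21.75. The IKU1 night pulse arrays lie at 32.5 to 39.3, below its night controls at 53.3 to 63.9.

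The calls of WRKY22 and WRKY53 held under the alternative settings that tested them. WRKY22 was called under 22 of 22 for the day pulse, with changes from -3.30 to -2.45, under 21 of 21 for the difference between pulses, from 1.96 to 2.54, and under 22 of 22 for the controls, from -3.01 to -2.28. WRKY53 was called between controls under 22 of 22, from -1.79 to -1.06, the smallest being without normalization (adjusted p = 0.03156). That setting moved the median of all night minus day control changes to 0.54 and median centring moved it to -0.19. For the day pulse the same medians were 0.08 and -0.25, beside which WRKY22 changed by -2.87 and -3.20.

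**Figure D4:**
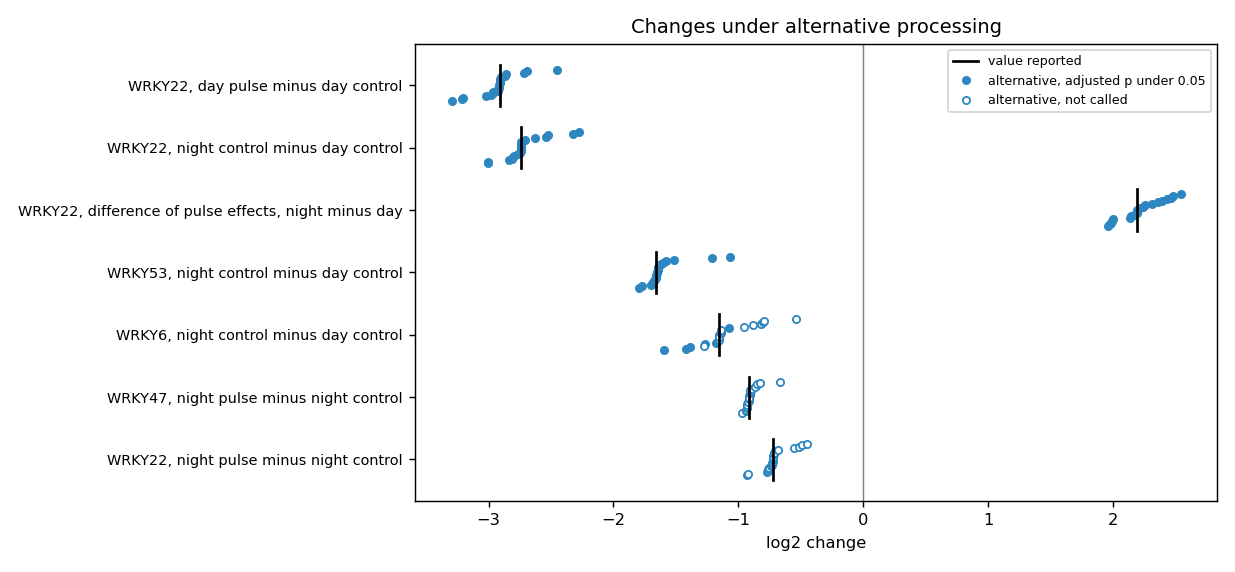
Fitted log2 changes (horizontal axis) of 7 gene and comparison pairs under alternative processing, with 1 point per alternative (filled where the adjusted p was under 0.05) and a black line at the value reported. Points within a row are spread vertically in order of size only. The 4 upper rows, for WRKY22 and WRKY53, hold filled points alone, and the 3 lower rows, for WRKY6, WRKY47 and WRKY22 at night, hold both kinds.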

How the data were processed

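RNA from 12 samples was hybridized to Affymetrix arrays. The deposited table holds linear intensities, 1 for each array and probe set. The submitters' processing notes name MAS5 and no other tool. Its version and scaling target are not given, and the arrays had not been brought to a common level. Of 22810 probe sets, 64 controls were left out. In the array annotation 13513 had 1 gene, 503 had several and 8730 were not listed. Signals were raised by 2, taken to log2 and quantile normalized, and probe sets above the 40th percentile of mean log2 value (13647) were fitted in 1 model of 4 groups with limma 3.58.1 in R 4.3.3 (lmFit, trended eBayes, two-sided tests, 8 residual degrees of freedom, Benjamini-Hochberg adjustment). Normalized signals are 2 raised to these values, minus the offset of 2. A fold against a dim mean uses 21.75 in its place and is given as "at least". The fit was also run on simulated data, with independent noise for each probe set and array and changes added to the day pulse group only. That simulation held no shifts shared within an array, so it does not test the p-values given here. The offset understates changes of low genes.

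Members and gene lists were chosen with earlier results of these data known. Array values are given for members called in any comparison with a log2 change of at least 1 (WRKY22 and WRKY53) and for called partner genes, and the other members by range and fitted values. The labels do not say that arrays came from separate plants, so the p-values rest on a spread between arrays that may be technical. No 2 arrays held identical values. Same-numbered arrays of different groups had correlations of their deviations from -0.1082 to 0.4462, with 8 of 18 pairs over 0.1, which does not show that the numbers pair the arrays. No genome positions or sequences are given, because no sequence table was used here and the sources do not name the genome build of the array annotation. Of the alternatives, leaving out the arrays of high GAPDH ratio was chosen after seeing the data.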

Additional observations from a re-analysis of the deposited data

Results flagged for a closer look

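The fitted response of WRKY22 to the light pulse differed between the 2 times. The test of the difference itself, night minus day, gave 2.19 ± 0.46 on the log2 scale (limma adjusted p = 0.007401), with a fall from 241 to 31.3 in the subjective day and means of 35.4 and 20.3 at night. The night pulse mean was dim. Any night fall beyond 1.63-fold ends at dim signals, so the size of the difference is not established. Over 21 alternatives the adjusted p ran from 0.0001021 to 0.0288.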

How the results depend on the processing

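No fitted change of a WRKY gene that was called, here or under an alternative, changed sign. A filter at the 60th percentile kept 1 WRKY gene, WRKY20, so the counts of WRKY genes called fell to 0 for the day pulse, 0 for the difference between pulses and 0 between controls, because fewer genes were tested. The count of WRKY genes lower after the night pulse, 0 of 5 as reported, was 2 with a replicate block, 2 with array weights and 1 with dim signals raised. With only the compared groups it was 1 of 3 tested. Counts of all probe sets called are given below for the block, array weights and arrays left out. They are not given for dim signals raised or only the compared groups, so those WRKY counts have no share beside them. With each array left out the count lower after the night pulse ran from 0 to 1. The count lower at night among controls ran from 2 to 3, that lower after the day pulse stayed at 1, and the count with a called difference was 1 in each. Array weights called 1 WRKY gene, WRKY47, for a pulse effect more negative at night. The cause of these shifts was not tested.

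Without normalization 669 probe sets were called for the night pulse, 3721 for the day pulse and 439 for the difference, which median centring raised to 2728. Array weights gave 3513 for the night pulse and 5308 for the difference, in a weight fit that stopped before full convergence. With each array left out the counts ran from 1105 to 2295 (night pulse), 4728 to 6162 (day pulse), 1147 to 2650 (difference) and 5531 to 7429 (controls). The lowest night pulse count, 1105, came without night control replicate 2, and the difference gave 1147 without night control replicate 3 and 2650 without day control replicate 1. The replicate block gave 1964, 6214, 2019 and 6928. It changed 3 calls of WRKY genes, WRKY22 and WRKY47 at night and WRKY6 between controls, and the labels do not show that the numbers pair arrays. Dim signals limit WRKY42 in every group, WRKY22 after the night pulse, WRKY53 in night controls and WRKY6 after the night pulse.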
